A study of Mus musculus with 3 samples.

Results

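The splicing of 6 genes for proteins that bind microtubules, Clasp1, Clasp2, Clip1, Map4, Mapt and Numa1, was examined in mouse hearts carrying a point mutation of the splicing factor gene Rbm20. The genes were chosen by symbol as microtubule-binding proteins with exons that are used in some transcripts and skipped in others, and they are 6 of 52071 gene identifiers outside overlapping genes in the deposited table. They hold 344 of its 469293 exonic parts, which are stretches of exon between annotated exon boundaries. None of these 344 parts is shared with an overlapping gene.

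Heart RNA was sequenced from wild-type mice and from mice heterozygous or homozygous for the I538T knock-in allele of Rbm20, all at 12 weeks of age and on a C57BL/6 background. The allele was made with Cas9 in zygotes and is carried in every cell of the animal, and the labels name no further allele or treatment. There is 1 library per genotype, described as representative, and the sources differ on whether a library stands for 1 mouse or for several. The spread between mice is therefore unknown, no test across mice was possible, and all intervals below are 95% intervals that cover counting error only.

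Microtubules are hollow polymers of tubulin that in cardiomyocytes run between the myofibrils and around the nucleus, carry cargo and add stiffness to the contracting cell. Structural MAPs such as the products of Map4 and Mapt bind along the microtubule wall through a row of similar repeats, and both genes are known to vary the number of these repeats by alternative splicing. The products of Clip1, Clasp1 and Clasp2 bind growing plus ends and link or stabilise them, whereas NuMA, the product of Numa1, is a nuclear protein that gathers microtubule minus ends and dynein at the spindle poles of dividing cells.

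Most of the exons that carry the results are short and lie inside coding sequence. They are given here as annotated in GENCODE M21 transcripts, 5′ to 3′ on the coding strand with GRCm38 coordinates, with the exon in capitals between 20 bases of the neighbouring exons in lower case. The first pair belongs to Map4, whose exons 14 and 15 of the 19 in Map4-201 lie next to each other at chr9:110071026-110071139 and chr9:110072613-110072705 on the plus strand.
Map4 exon 14, 114 bases: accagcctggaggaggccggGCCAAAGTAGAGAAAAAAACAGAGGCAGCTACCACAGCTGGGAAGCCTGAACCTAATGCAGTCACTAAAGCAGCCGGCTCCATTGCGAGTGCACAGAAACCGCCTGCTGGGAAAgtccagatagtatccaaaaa
Map4 exon 15, 93 bases: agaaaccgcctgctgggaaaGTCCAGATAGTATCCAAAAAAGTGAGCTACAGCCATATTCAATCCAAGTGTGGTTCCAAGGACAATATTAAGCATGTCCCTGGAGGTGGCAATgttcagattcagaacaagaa

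Clip1 lies on the minus strand, and its 2 exons at chr5:123638956-123638988 and chr5:123635174-123635278 are shown because their inclusion differed between libraries while both stayed in frame. The bases that follow the first exon in Clip1-201 are the opening bases of the second.
Clip1, 33 bases: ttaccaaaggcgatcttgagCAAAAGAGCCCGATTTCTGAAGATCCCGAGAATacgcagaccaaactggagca
Clip1, 105 bases: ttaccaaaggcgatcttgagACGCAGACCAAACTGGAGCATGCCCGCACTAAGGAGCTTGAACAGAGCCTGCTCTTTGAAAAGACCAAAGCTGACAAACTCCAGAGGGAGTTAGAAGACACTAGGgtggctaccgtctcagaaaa

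The Clasp exons are very short, and all have lengths that are multiples of 3 bases. The Clasp1 exon lies at chr1:118547656-118547658 and the Clasp2 exons at chr9:113860120-113860137, chr9:113862436-113862462 and chr9:113865086-113865112, all on the plus strand. The last 2 Clasp2 exons follow each other in Clasp2-207.
Clasp1, 3 bases: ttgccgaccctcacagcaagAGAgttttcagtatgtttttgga
Clasp2, 18 bases: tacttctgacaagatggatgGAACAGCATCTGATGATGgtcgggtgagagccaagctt
Clasp2, first of 27 bases: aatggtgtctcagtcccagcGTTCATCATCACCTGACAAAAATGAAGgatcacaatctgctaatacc
Clasp2, second of 27 bases: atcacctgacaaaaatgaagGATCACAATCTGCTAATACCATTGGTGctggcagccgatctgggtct

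The Numa1 exon lies at chr7:102002295-102002336 on the plus strand and is exon 2 of the 13 in Numa1-202.
Numa1, 42 bases: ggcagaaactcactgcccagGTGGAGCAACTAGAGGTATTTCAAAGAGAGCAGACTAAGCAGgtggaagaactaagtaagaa

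Inclusion of each exonic part was measured as PSI, the percentage of transcripts that include it, from deposited counts of inclusion and exclusion (skipping) reads with a correction for the length of the part. Differences are in percentage points of PSI. The libraries held 149633524 (wild-type), 157178099 (heterozygote) and 157990953 (homozygote) inclusion reads. Of the 344 parts, 308 had at least 20 reads in each library, and 53 of these were variable, that is, with a PSI between 5 and 95% in at least 1 library. Clasp1 had 14 variable parts, Clip1 10, Clasp2 9, Mapt 9, Map4 8 and Numa1 3. By annotation, 28 were whole internal exons, 8 lay only in transcripts with a retained intron, 7 were in first exons, 6 were pieces of internal exons and 4 were in last exons. Of the 28 whole internal exons, 26 (92.9%) had a length that is a multiple of 3 bases, against 45.6% of the 8325 whole internal exons that were variable over all genes. The share over all genes was not limited to coding exons or to protein-coding genes, so it is not a like-for-like comparison.

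Rbm20 itself had 5571, 5659 and 6420 inclusion reads in wild-type, heterozygote and homozygote heart; a point mutation need not change this level, so it does not check the labels. The cardiomyocyte markers summed to 57875, 64855 and 62877 in counts-per-million of inclusion reads (CPM) in the same order, with 9 of 10 in the table and none at 0. Sums of the other lists differed between libraries to varying degrees. Blood markers, 5 of 5 in the table, summed to 86119 CPM in wild-type heart, 31993 in heterozygote heart and 107317 in homozygote heart. Small intestine markers summed to 164, 118 and 49.0 CPM, and 16 of 21 exceeded both mutants by a factor of 3 or more in wild-type heart, with 9 of 21 at 0 in each mutant library. Most of the sum in heterozygote heart came from Lyz1 (44.6, 55.9 and 19.7 CPM in the same order) and Lgals4 (51.5, 56.7 and 25.3). Nerve and Schwann cell markers, which matter here because tau is abundant in neurons, summed to 23.5, 20.8 and 21.2 CPM. Immune markers (8 of 8 in the table) summed to 511, 564 and 317 CPM, lowest in homozygote heart, and smooth muscle and pericyte markers (7 of 7) to 268, 371 and 301 CPM, highest in heterozygote heart. Fibroblast markers (6 of 7) summed to 1167, 1061 and 1161 CPM, and endothelial markers (6 of 7) to 1418, 1508 and 1399. The part of these cells in the results below was not tested.

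The question of each comparison was whether the mutant allele went with another use of these exons. Size was described by 2 rules, each requiring 20 or more reads in both libraries compared: a size rule of 20 points, and an interval rule of at least 10 points with a counting interval that leaves out 0. Over all pairs of genotypes, 13 member parts passed a rule in at least 1 comparison, and each of the 6 genes had at least 1. Measured against the rest of the table this was no excess. Between homozygote and wild-type, 2 of 308 member parts (0.649%) passed the size rule, both higher in homozygote heart, against 1.43% of all parts. By the interval rule 7 of 308 (2.27%) passed, 2 higher and 5 lower, against 2.21% of all parts, and among variable parts these 7 were 13.2% of 53, against 13.4% over all genes. Between heterozygote and wild-type, 1 of 309 member parts (0.324%) passed the size rule against 1.49%, and 5 (1.62%) passed the interval rule against 2.44%, or 9.43% of the variable parts against 14.6%. Between homozygote and heterozygote, 3 of 309 (0.971%) passed the size rule against 1.49%, and 5 (1.62%) the interval rule against 2.42%, or 9.43% of the variable parts against 14.7%. The first 2 of these comparisons share the wild-type library, and the third is the one without it.

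**Figure D1:**
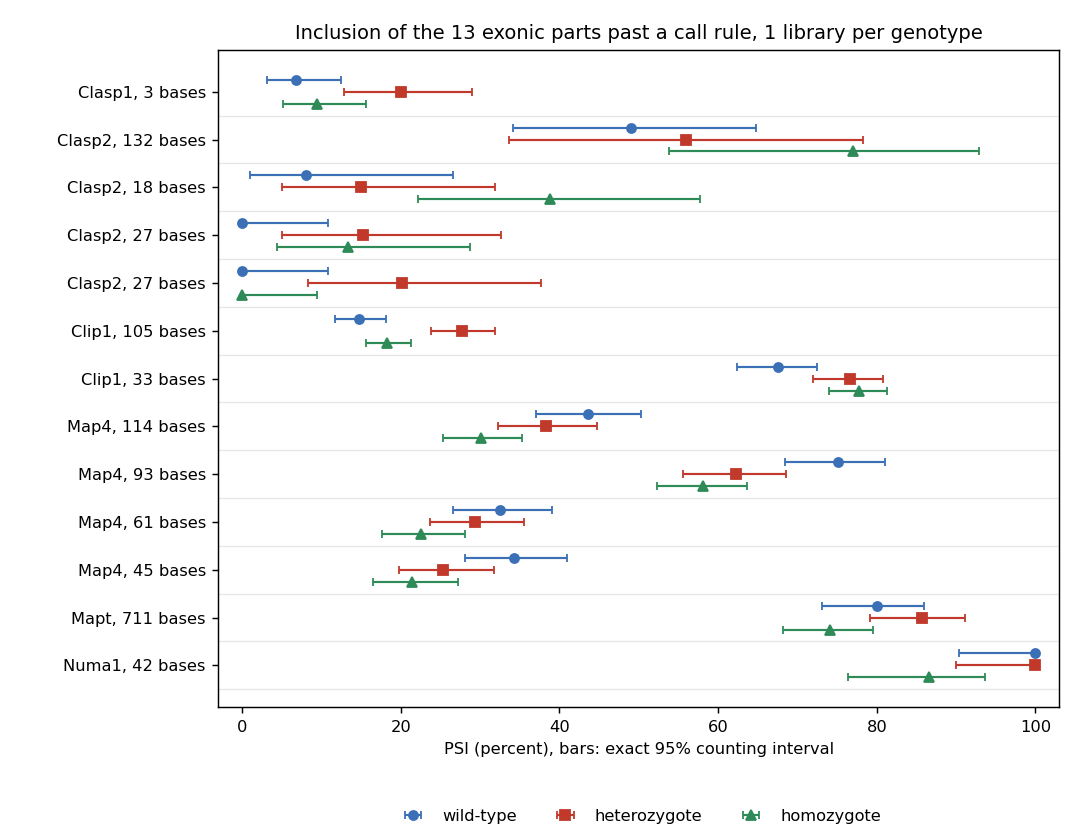
PSI in percent (horizontal axis) of the 13 exonic parts of the member genes past a rule in any comparison, with 1 point per library (circle, wild-type; square, heterozygote; triangle, homozygote) and bars for the exact 95% counting interval. The 4 Map4 parts step down from wild-type to homozygote, and the Clasp2 parts have the widest bars.

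**Figure D2:**
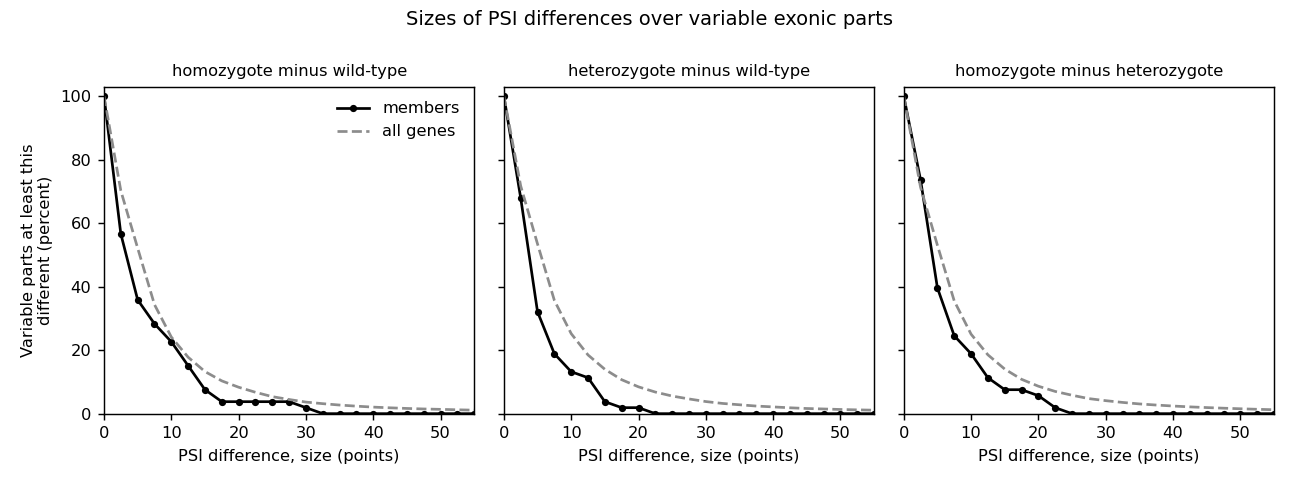
Percentage of variable exonic parts (vertical axis) whose PSI differed by at least the number of points on the horizontal axis, for the 53 member parts (black line with points) and the 28732 parts of all genes (dashed line) in each pair of genotypes. The member line lies below that of all genes at 20 points in each panel.

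By median size, the variable member parts differed less between the libraries than the variable parts of all genes. The median size of the difference over the 53 variable parts was 3.30 points between homozygote and wild-type, 3.75 between heterozygote and wild-type and 3.89 between homozygote and heterozygote, against 5.22, 5.37 and 5.32 points over the 28732 variable parts of all genes. The heterozygote lay between wild-type and homozygote in 19 of the 53 parts (35.8%), against 27.5% over all genes. Among the member parts that are whole internal exons it did so in 8 of 28 (28.6%). The plot of difference sizes shows the same order along most of its length. Members and all genes were not matched for read depth, and parts with few reads differ more by counting error alone. The variable member parts had from 22 to 1683 reads in a library. The part of depth in this order was not tested.

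Map4, the structural MAP that is found in most tissues, striated muscle included, had 4 of the 7 member parts past the interval rule between homozygote and wild-type. Its 2 neighbouring exons shown above and the start of its last exon all had lower PSI in homozygote heart than in wild-type heart, with the heterozygote between. Neighbours among these 4 parts share exclusion reads, so they are not 4 separate events. Over the 8 variable Map4 parts, 1 was higher and 7 were lower in homozygote heart than in wild-type heart, with a median difference of -7.23 points, and the heterozygote lay between them in 5 of 8. Of the 28732 variable parts of all genes, 13132 were higher and 13820 lower in homozygote heart, with a median difference of 0.

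The 93-base exon 15 had a PSI of 75.1% in wild-type heart (223 inclusion and 43 exclusion reads), 62.2% in heterozygote heart (204 and 72) and 58.0% in homozygote heart (250 and 105). This exon encodes one of the microtubule-binding repeats of MAP4, so the numbers describe the balance between forms with and without it. The homozygote was 17.0 points below the wild-type (difference -17.0, interval -25.3 to -8.30), and the heterozygote was 12.9 points below it (-12.9, -21.8 to -3.64). The 2 mutant libraries were 4.17 points apart (-4.17, -12.7 to 4.53), an interval that holds 0.

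Exon 14, directly before it, had a PSI of 43.5% in wild-type heart (138 inclusion and 95 exclusion reads), 38.3% in heterozygote heart (125 and 107) and 30.1% in homozygote heart (132 and 163). It adds 38 codons directly before the repeat of exon 15. The homozygote was 13.5 points below the wild-type (-13.5, -21.7 to -5.21), whereas heterozygote against wild-type gave -5.26 points (-14.3 to 3.89). Reads that skip both exons count as exclusion reads of each, so the 2 exons are not independent of each other.

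The last exon of Map4-201 starts with adjoining parts of 61 and 45 bases that some transcripts leave out. The 61-base part had a PSI of 32.5% in wild-type heart, 29.3% in heterozygote heart and 22.5% in homozygote heart, from 86, 80 and 65 inclusion reads and 121, 131 and 152 exclusion reads. The 45-base part had 34.2, 25.3 and 21.5% in the same order, with the same exclusion reads. Homozygote minus wild-type was -10.0 points in the first (-18.2 to -1.86) and -12.8 points in the second (-21.1 to -4.35). As they share their exclusion reads, they are not independent of each other.

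The remaining variable Map4 parts passed neither rule between homozygote and wild-type. The 3180-base exon 2 of Map4-202, which gives the long muscle form of MAP4, had a PSI of 19.8% in wild-type heart, 22.0% in heterozygote heart and 18.9% in homozygote heart, from 1194, 1268 and 1442 inclusion reads. Its difference between homozygote and wild-type was -0.932 points, with an interval from -4.26 to 2.32, so that at this depth a change of several points in either direction would have been visible. The 222-base exon 10 of Map4-201 had 97.4, 96.6 and 93.0%. A 3-base piece of exon 4 of Map4-212 had 9.68, 10.2 and 9.33%, and the 223-base last exon of the short transcript Map4-207 had 8.01, 12.6 and 9.16%. Between homozygote and heterozygote all 8 variable Map4 parts were lower in homozygote heart, none by 10 points. Of the 28732 variable parts of all genes, 14351 were lower and 12523 higher in that comparison.

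**Figure D3:**
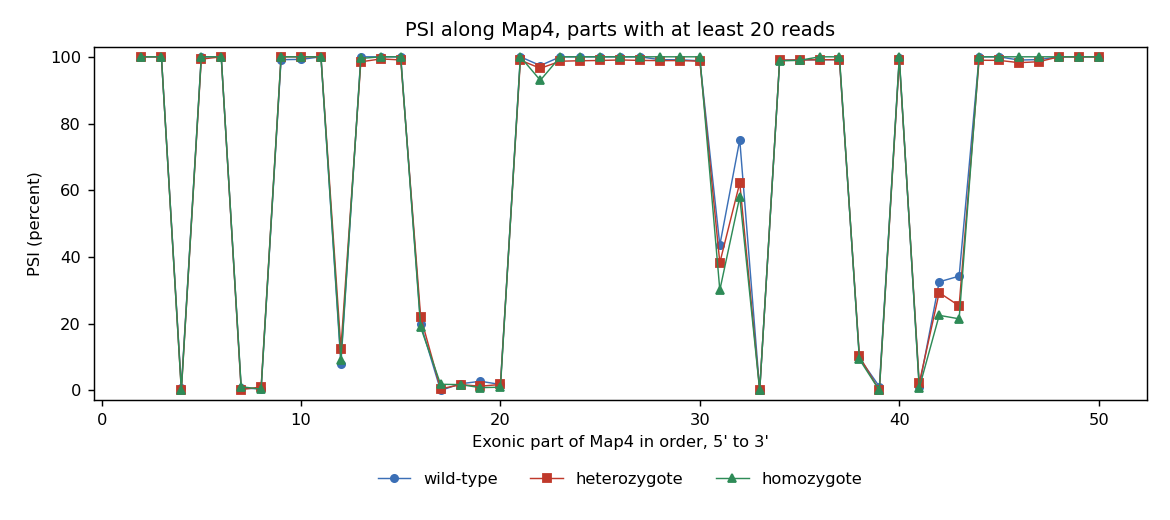
PSI in percent along the exonic parts of Map4 in transcript order, for parts with at least 20 reads, with 1 line per library. At parts 31 and 32 and at the start of the last exon (parts 42 and 43) the wild-type is highest and the homozygote lowest.

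Mapt encodes tau, the MAP best known from neurons. Of its 9 variable parts, 1 passed a rule, the interval rule between homozygote and heterozygote. The 711-base exon 5 of Mapt-202, the large exon that marks the "big tau" form of peripheral nerves, had a PSI of 80.0% in wild-type heart (702 inclusion and 27 exclusion reads), 85.8% in heterozygote heart (706 and 18) and 74.0% in homozygote heart (929 and 50). The heterozygote was highest and the homozygote lowest. The homozygote was 11.7 points below the heterozygote (-11.7, -19.6 to -3.11), but without the length correction of PSI the difference was -2.62 points, since inclusion reads of so long an exon far outnumber reads that skip it. Against the wild-type the homozygote differed by -5.92 points (-14.3 to 2.82).

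The 87-base exons 2 and 3 of Mapt-202 encode the inserts at the amino-terminal end of tau. Exon 2 had a PSI of 41.7% in wild-type heart, 39.3% in heterozygote heart and 33.7% in homozygote heart. Exon 3 had 20.8, 23.2 and 18.6%. The second was thus less used than the first in every library, and in neither did the difference between homozygote and wild-type leave 0 out of its interval (-18.7 to 2.56 and -10.3 to 5.56). The 66-base exon 4 had 90.5, 92.0 and 88.4%, and a 54-base exon of Mapt-205 had 16.1, 18.6 and 19.7%. A 48-base piece of exon 5 of Mapt-203 had 43.0, 47.2 and 42.2%. Over the 9 variable Mapt parts, 8 were lower and 1 was higher in homozygote heart than in wild-type heart, with a median difference of -2.22 points. Over all genes, 13820 of the 28732 variable parts were lower and 13132 higher.

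Clip1 encodes CLIP-170, which rides on growing plus ends and recruits dynactin. Here 2 exons in the middle of the transcript differed between libraries in different ways. The 33-base exon had a PSI of 67.6% in wild-type heart (272 inclusion and 104 exclusion reads), 76.6% in heterozygote heart (337 and 82) and 77.8% in homozygote heart (493 and 112). Both mutants were above the wild-type, with 10.2 points in the homozygote (4.02 to 16.5) and 9.03 points in the heterozygote (2.25 to 15.8), and the mutants were 1.21 points apart (-4.47 to 7.02).

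The 105-base exon that follows was used less. Its PSI was 14.7% in wild-type heart (84 inclusion and 269 exclusion reads), 27.7% in heterozygote heart (168 and 242) and 18.3% in homozygote heart (158 and 389). The heterozygote stood above both other libraries, by 13.0 points against the wild-type (7.84 to 18.1), and the homozygote was 9.38 points below the heterozygote (-9.38, -14.4 to -4.50). Homozygote and wild-type differed by 3.61 points (-0.721 to 7.79).

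The 8 other variable Clip1 parts did not pass a rule. A 228-base piece of exon 10 of Clip1-201 had a PSI of 55.7% in wild-type heart, 60.0% in heterozygote heart and 62.1% in homozygote heart, and the 198-base exon 6 of Clip1-202 had 93.4, 96.9 and 98.0%, in both cases in the order of the 33-base exon. A 6-base exon near the 3′ end, exon 24 of Clip1-202, had 34.9, 38.4 and 36.5%. The differences of the 6-base exon were all within counting error. Pieces of the first exon of Clip1-202, of 24, 47 and 3 bases, had 100% in wild-type and homozygote heart and 93.7, 91.8 and 87.2% in heterozygote heart, on 3 exclusion reads.

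Clasp1 and Clasp2 encode related proteins that promote the rescue of shrinking microtubules and anchor them near the cell cortex. In Clasp2 the largest differences of all members were found, on the fewest reads. The 18-base exon had a PSI of 8.07% in wild-type heart (2 inclusion and 20 exclusion reads), 14.9% in heterozygote heart (5 and 25) and 38.8% in homozygote heart (13 and 18). The homozygote exceeded wild-type by 30.7 points (5.90 to 51.0) and heterozygote by 23.9 points (0.190 to 45.3). It was the only member part past both rules between homozygote and wild-type.

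The 2 neighbouring 27-base exons of Clasp2 had few inclusion reads. The first was read 0 times in wild-type heart, 5 times in heterozygote heart and 5 times in homozygote heart, against 27, 23 and 27 exclusion reads, which gave a PSI of 0, 15.2 and 13.3%. The count of 0 allowed a PSI of up to 10.8%. The second was read 7 times in heterozygote heart, against 23 exclusion reads (PSI 20.1%), and 0 times in wild-type heart and the homozygote, against 27 and 31. The heterozygote thus stood alone in the second exon, 20.1 points above the wild-type (4.15 to 37.7), while in the first the mutants differed by -1.96 points (-21.4 to 16.6). Reads that skip both exons count for each, and with a minimum of 50 reads none of these Clasp2 differences had a value. Exons 13 and 21 of Clasp2-207, of 24 bases each, had 7.78 and 4.25% in wild-type heart and 11.9 and 11.7% in heterozygote heart, and neither was read in homozygote heart (24 and 22 exclusion reads, which allow up to 12.3 and 13.3%). A 17-base exon, the only variable Clasp2 internal exon that does not keep the frame, had 9.32, 5.56 and 8.51%.

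Clasp2 also had a variable first exon, of 132 bases in Clasp2-206. Its PSI was 49.0% in wild-type heart (33 inclusion and 17 exclusion reads), 56.0% in heterozygote heart (18 and 7) and 76.9% in homozygote heart (27 and 4). It passed the size rule at 28.0 points between homozygote and wild-type, but its interval from -0.0702 to 49.7 held 0. For a first exon, exclusion reads are junctions that pass over it from an exon further upstream, so this value mixes the choice of start with splicing.

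In Clasp1 the 3-base exon, exon 29 of 42 in Clasp1-218, had a PSI of 6.78% in wild-type heart (9 inclusion and 121 exclusion reads), 20.02% in heterozygote heart (21 and 82) and 9.43% in homozygote heart (13 and 122). The heterozygote exceeded wild-type by 13.2 points (4.06 to 22.9), whereas the homozygote was 10.6 points below the heterozygote (-10.6, -20.5 to -1.11). Wild-type and homozygote did not differ beyond counting error (2.66 points, -4.50 to 9.81). How well the aligner placed reads over an exon of 3 bases was not tested.

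The other Clasp1 exons did not pass a rule. A 102-base exon of Clasp1-222 had a PSI of 48.0% in wild-type heart, 60.1% in heterozygote heart and 58.3% in homozygote heart, with an interval from -1.24 to 21.6 points between homozygote and wild-type. The 24-base exon 26 of Clasp1-218 had 86.5, 84.5 and 88.2%, and a 3-base piece of exon 27 had 96.6, 93.0 and 87.4%. The difference of this piece, -9.16 points between homozygote and wild-type (-15.0 to -3.06), left 0 out of its interval but was under 10 points. Exons of 48, 63, 69 and 117 bases were rarely used, with PSI from 0.536 to 7.32%. Over the 14 variable Clasp1 parts, 7 were higher and 7 were lower in homozygote heart than in wild-type heart.

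Numa1 was almost constitutive. Its 42-base exon was in every read that could tell in wild-type heart (48 inclusion and 0 exclusion reads) and in heterozygote heart (46 and 0), which allows a PSI down to 90.4% and 90.0%, whereas the homozygote had 77 inclusion and 9 exclusion reads, a PSI of 86.6%. The homozygote was the only library in which it was skipped, 13.4 points below the wild-type (-13.4, -23.6 to -1.54) and the heterozygote (-13.4, -23.6 to -1.22). A first exon of 89 bases in Numa1-208 had 33.7, 31.1 and 49.2% on 26, 37 and 29 reads, with an interval of -12.4 to 41.3 points between homozygote and wild-type.

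The 8 variable parts found only in transcripts with a retained intron had low PSI, from 0% for a 222-base part of Numa1 in homozygote heart to 24.7% for a 1383-base part of Clasp2 in wild-type heart. All 8 were lower in homozygote heart than in wild-type heart, with a median difference of -2.90 points, and 7 of 8 were lower in homozygote heart than in heterozygote heart, with a median of -3.86 points. Over the 4205 such parts of all genes 55.4% and 62.3% were lower in these comparisons, with medians of -0.74 and -2.01 points. The Clasp2 part had 24.7, 17.9 and 14.1% in wild-type, heterozygote and homozygote heart, and its interval between homozygote and wild-type was -23.2 to 0.624 points. None of the 8 passed a rule.

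At the level of whole genes, 0 of the 6 members had a log2 ratio of CPM of 1 or more in size, taken after adding 1 CPM to each value, in any comparison. Over the 12862 genes that averaged 1 CPM or more, 1.62% reached it between homozygote and wild-type, 1.04% between heterozygote and wild-type and 0.972% between homozygote and heterozygote, so that 0 of 6 is no result about the members. The pseudocount makes the ratio of a low gene smaller than its change, and in a whole heart fewer cells of a type and less RNA per cell cannot be told apart.

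Clip1 differed most from the wild-type in homozygote heart. It had 116 CPM in wild-type heart, 124 in heterozygote heart and 149 in homozygote heart, a log2 ratio of 0.36 between homozygote and wild-type (0.33 to 0.39), larger in size than in 81.6% of genes. Clasp1 had 121, 100 and 129 CPM, lowest in heterozygote heart, with log2 ratios of -0.28 between heterozygote and wild-type (-0.31 to -0.25) and 0.37 between homozygote and heterozygote (0.34 to 0.40), larger in size than in 75.6% and 84.1% of genes. Map4 had the same order at 138, 125 and 146 CPM. Blood markers were also lowest in heterozygote heart, and with library totals that leave out the 10 genes with the most reads the Clasp1 ratios were -0.35 and 0.47.

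Mapt, Numa1 and Clasp2 had log2 ratios of at most 0.13 in size in each comparison with the library total. Mapt had 32.2, 29.7 and 32.7 CPM, Numa1 28.4, 27.8 and 29.8, and Clasp2 18.5, 18.4 and 17.4 in wild-type, heterozygote and homozygote heart. Mapt and Numa1 had the order of Clasp1 and Map4, lowest in heterozygote heart and highest in homozygote heart. The log2 ratio of Mapt was -0.11 between heterozygote and wild-type (-0.17 to -0.06) and 0.13 between homozygote and heterozygote (0.08 to 0.19). The log2 ratio of Clasp2 between homozygote and wild-type was -0.08 with the library total and 0.06 with median-of-ratios size factors, so that no direction was given. Those factors took Mapt from 0.02 to 0.16 and Numa1 from 0.06 to 0.20 in the same comparison. That scaling moved the median log2 ratio of all genes between homozygote and wild-type from -0.08 to 0.04, and the ratios of the 6 genes are read against this shift. A read that covers several exonic parts is counted in each, which makes these intervals too narrow.

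**Figure D4:**
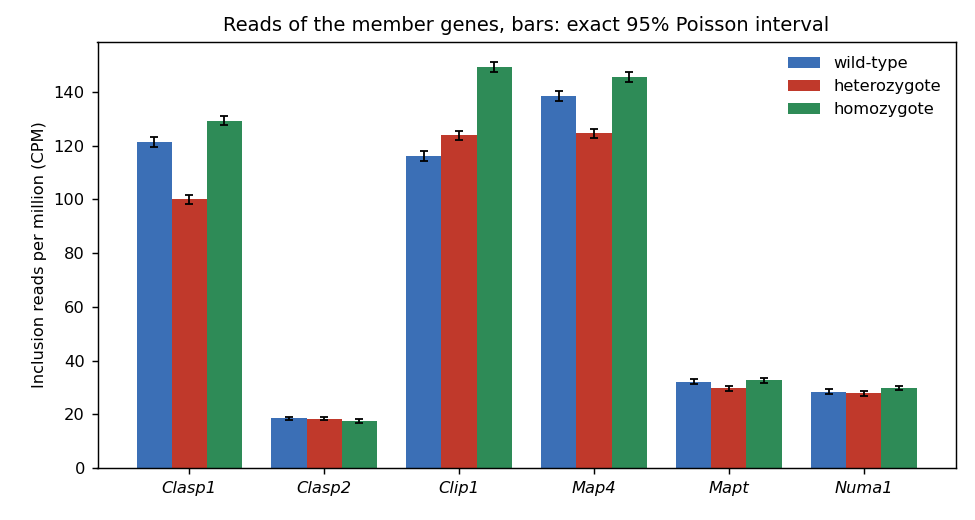
CPM (vertical axis) of the 6 member genes, with 1 bar per library and exact 95% Poisson intervals for counting error. Clip1 is highest in homozygote heart (149 CPM), and Clasp1 is lowest in heterozygote heart (100 CPM).

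Per length, Map4 was highest and Clasp2 lowest in every library. Levels over exonic parts that were always included, as the median CPM per kilobase of read positions, were highest for Map4 (11.5, 9.92 and 12.1 in wild-type, heterozygote and homozygote heart) and lowest for Clasp2 (1.73, 1.57 and 1.70). Numa1 was just above Clasp2 at 2.24, 2.28 and 2.58. Between these extremes Clasp1 (7.20, 5.57 and 8.21), Clip1 (6.95, 8.82 and 10.6) and Mapt (5.96, 5.79 and 6.64) changed places between libraries, so that their order was not settled. Tau RNA was thus above that of Numa1 and Clasp2 per length in every library.

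Other genes of the microtubule system were taken from a list of 83 tubulins, MAPs, plus-end proteins, tubulin enzymes, motors and spindle genes, of which 77 were in the table and 66 averaged 1 CPM or more. Their median log2 ratios were -0.04, 0.02 and -0.03 between homozygote and wild-type, heterozygote and wild-type, and homozygote and heterozygote, and single genes lay on both sides. Between homozygote and wild-type the 66 ran from -0.47 in Mark1, a kinase that phosphorylates MAPs, to 0.79 in Mid1, a microtubule-bound ubiquitin ligase, both named after their values were seen. Epb41, which encodes the red-cell membrane protein 4.1 and also serves at the spindle, was the only one of the 66 past a log2 ratio of 1. It had 110 CPM in wild-type heart, 40.5 in heterozygote heart and 115 in homozygote heart, the order of the blood markers, and was named after its values were seen.

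In splicing, 12 of 1325 parts of these genes (0.906%) passed the size rule between homozygote and wild-type, in 8 genes, with 4 higher and 8 lower in homozygote heart. The interval rule took 34 (2.57%), in 15 genes, with 12 higher and 22 lower. Both shares are close to or below those of all parts given above. The largest difference was in Dctn1, which encodes the dynactin subunit that CLIP-170 recruits. A 21-base exonic part of it had a PSI of 68.4% in wild-type heart (126 inclusion and 50 exclusion reads), 57.7% in heterozygote heart (122 and 77) and 16.5% in homozygote heart (22 and 96). Homozygote minus wild-type was -52.0 points (-61.1 to -41.2), a larger difference than in any of the 6 members.

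Further parts past both rules between homozygote and wild-type were in genes for a tubulin acetylase and for other binding proteins. A 69-base part of Atat1, the acetylase, had 54.4, 89.2 and 94.97% in wild-type, heterozygote and homozygote heart, with 12, 3 and 1 exclusion reads. A 102-base part of Tacc2, a plus-end and centrosome protein, had 46.3, 62.0 and 85.0%, and a 107-base part of Mark2, a kinase that phosphorylates MAPs, had 64.6, 74.2 and 95.4%. In wild-type heart the Tacc2 part had only 17 inclusion and 11 exclusion reads, and the Mark2 part 20 and 6. Their intervals between homozygote and wild-type were wide, 16.6 to 58.2 and 4.10 to 54.5 points. These parts of Atat1, Tacc2 and Mark2 were higher in both mutants, but other parts of Tacc2 and Mark2 were lower in homozygote heart. A 5121-base part of Tacc2 had 96.7, 77.1 and 71.1%, and a further 102-base part of it 97.4, 74.3 and 73.8%. Both have the same counts of exclusion reads (1, 11 and 19), so they are not read as independent of each other. Their PSI in wild-type heart thus rests on 1 exclusion read. An 18-base part of Mark2 had 42.8, 48.8 and 20.6%. Short parts of Clip4 (1 base, 56.5, 28.1 and 21.1%) and Camsap1 (3 bases, 67.5, 94.3 and 100%) rest on 17, 15 and 7 inclusion reads and on 17, 17 and 28, and an 808-base part of Clip4 had 89.3, 74.8 and 66.7%.

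The parts of other genes nearest in PSI over the 3 libraries were found among 81864 internal parts with at least 100 reads in each. Nearest to the 18-base Clasp2 exon were parts of Ttn, Gm14419, Tmem176b, Tollip and Naa40, at distances from 5.66 points for Ttn (7.05, 13.7 and 33.4%) to 13.99 points for Naa40. Nearest to Map4 exon 15 were parts of Fbxo6, Zfp655, Tef, Iqcc and Ythdf2, at 1.95 points for Fbxo6 (74.1, 61.0 and 59.2%) to 4.94 points for Ythdf2. With 3 libraries such likeness is a description of 3 values, and the counting interval of the Clasp2 exon in homozygote heart, 22.2 to 57.8%, is wider than these distances.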

How the data were processed

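Heart RNA of 3 genotypes at 12 weeks was read from 1 library each, made from full-length cDNA with a SMART-seq kit that does not mark strand. Per the labels and the submitters' processing notes, the genome build was GRCm38 and the tools were TopHat2 2.0.14, Bowtie 1.1.1, Trimmomatic 0.32 and cutadapt 1.1. The annotation and the counting program are not given in the sources used here. The authors deposited raw counts of inclusion and exclusion reads per exonic part, and PSI as a fraction. The deposited PSI fraction was recomputed from the counts, the length of the part and 129 read positions of a skipping junction, to within 0.0001 points. Left out were 3 PSI columns of a later age, which no sample record describes here, and 2 columns of differences computed by the authors.

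Exact Clopper-Pearson bounds (95%) of the inclusion share were converted to PSI and combined for differences. They cover counting error only, because without molecular identifiers PCR copies are counted as separate molecules. CPM used the total of inclusion reads, left the 40250 parts of overlapping genes out of gene sums, and had a pseudocount of 1 CPM and a mean minimum of 1 CPM. The computation was tested on simulated data. The members and lists were chosen with earlier results of these data known.

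Every variable member part past the size rule or the interval rule in any comparison was named, and from the microtubule list at most 6 genes with a part past both rules between homozygote and wild-type. Likeness was taken for the member exon with the largest difference and, chosen after seeing the data, for Map4 exon 15. Exon sequences came from GENCODE M21 transcripts, and 1 Mapt exon is not reported here. A planned count of a binding motif in the flanking introns was not run. The alternatives were other sizes and read minimums, PSI without length correction, only the longest part of each run of adjoining parts, overlapping parts kept, other library sizes, another pseudocount and no filter. Python 3.11.15, numpy 2.4.6, pandas 2.3.3, scipy 1.17.1 and matplotlib 3.10.9 were used.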

Additional observations from a re-analysis of the deposited data

How the results depend on the processing

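No paired analysis was possible because there is 1 library per genotype, and for the same reason no library could be left out within a genotype. The counts of member parts past the size rule (2 between homozygote and wild-type, 1 between heterozygote and wild-type and 3 between homozygote and heterozygote) became 12, 7 and 10 with a size of 10 points and 1, 0 and 0 with 30 points. With a minimum of 50 reads they were 0, 0 and 0, since the parts concerned have fewer reads, and with 10 reads the count between heterozygote and wild-type was 2. The counts by the interval rule were tried, after seeing the data, in 2 further settings. In the first, only the longest part of each run of adjoining parts was kept (195 of 344 parts). No reads were merged, and a run can hold parts of a retained intron, so a called part can give way to a longer neighbour. The count of 5 between heterozygote and wild-type became 3 there. Without length correction, a setting that gives long parts a PSI nearer to 100%, the count of 5 between homozygote and heterozygote became 12. Of the other 30 recomputed counts, 15 of parts stayed within 1.5 times, and 15 of member genes past a log2 ratio of 1 were 0 of 6 in every setting, as before, and say nothing about stability. Among those of parts, the interval-rule count of 7 between homozygote and wild-type became 5 with only the longest parts kept. Differences of parts past a rule were recomputed under 1 alternative only, PSI without length correction: none changed sign, 38 moved by less than their counting error and 1, of the 711-base Mapt exon, by more. Of the recomputed gene ratios, 65 stayed within counting error and 25 moved by more, with Clip1 between 0.36 and 0.50 and Map4 between 0.07 and 0.21 for homozygote against wild-type on the log2 scale.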
